A study of Mus musculus with 3 samples.

Results

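The genes described here are 10 members of the bone morphogenetic protein (BMP) pathway, chosen by name from a table of 18245 mouse genes. They are the ligands Bmp2, Bmp4 and Bmp6, the secreted antagonist Grem1, the receptors Bmpr1a and Bmpr2, the intracellular inhibitor Smad6, and the target genes Id1, Id2 and Id3. All 10 were listed and all 10 passed the filter on low counts in each comparison. Messenger RNA was sequenced from 3 kinds of cultured C57BL/6 cell from ventricle epicardium, the outer layer of the heart, with 3 libraries each. CDC are untreated cardiosphere-derived cells, mesenchymal cells that grow out of epicardial explants of 6-week-old mice by way of floating spheres. CDC-EpiC is 1 epithelial clone that formed when such CDC were kept in 10 µM SB-431542 for 2 weeks and that was then picked and moved to a new plate. Whether the inhibitor was in the medium at harvest is not given in the sources used here. The pEpiC are untreated primary epicardial cells of mice aged 6 to 8 weeks, released by digestion and cultured to passage 3 in another medium than CDC. No transgene or deletion is named for any group.

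BMP ligands bind type I receptors such as BMPR1A together with the type II receptor BMPR2, and the type I receptors then phosphorylate SMAD1, SMAD5 and SMAD9. These enter the nucleus with SMAD4 and raise Id1, Id2 and Id3, whose proteins bind E proteins and keep them from DNA, and Smad6, whose product feeds back on the receptors. Gremlin 1 and other secreted antagonists hold ligands away from receptors. SB-431542 blocks the kinases of the TGF-beta and activin type I receptors (Tgfbr1, Acvr1b, Acvr1c), and the BMP type I receptors are not among its targets. In the developing heart, BMP and TGF-beta signals both act on epicardial cells as they turn from epithelium to mesenchyme.

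Total expected counts were 22008833 to 22756045 per library. The labels speak of RNA from 3 separate samples, read here as 3 of each kind, and the methods of fewer biological replicates per condition. Neither ties a library to an animal or culture, so the p-values measure the spread between these libraries, which may be technical, and the 3 CDC-EpiC libraries hold no difference between clones. Summed over 8 epicardial markers, the level was 641 to 686 CPM (counts per 1000000 counts, TMM-scaled) in CDC, 5773 to 6754 in CDC-EpiC and 553 to 589 in pEpiC, and none of the 8 was at or under 3 counts in any kind. Most of the clone's sum was Upk3b, Lrrn4 and Upk1b, at 2664, 2129 and 1165 CPM. The 8 did not move as one: 4 were higher and 4 lower in pEpiC than in CDC, and 6 were higher and 1 lower in the clone than in CDC. Tbx18 was highest in CDC (92.8 CPM, against 56.6 in the clone and 48.9 in pEpiC), while Tcf21 and Aldh1a2 were highest in pEpiC (102 and 19.9 CPM, against 12.3 and 2.31 in CDC, and in the clone also below pEpiC). Summed over 10 macrophage markers, the pEpiC libraries stood at 862, 334 and 308 CPM, against 58.0 to 61.0 in CDC and 22.7 to 25.3 in CDC-EpiC. Of those 10 markers, 5 (C1qb, Adgre1, Ptprc, Fcer1g and Tyrobp) were at or under 3 counts in every CDC library and 7 in every CDC-EpiC library. Summed endothelial markers (10 genes) reached 90.2 to 108 CPM in pEpiC, 41.1 to 55.9 in CDC and 9.31 to 12.1 in CDC-EpiC, most of it Flt1. For 10 cardiomyocyte markers the sums were 138 to 154, 9.83 to 29.1 and 12.1 to 14 CPM in the same order, with Tnnt2 at 144 ± 7.85 CPM in pEpiC (SD, n = 3) and Myh6, Actc1, Myl2 and Pln at or under 3 counts there. The CDC libraries were not alike in these markers. Libraries 1, 2 and 3 held 191, 190 and 0 counts of Myh6, 64, 50 and 1 of Actc1 and 25, 27 and 1 of Myl2. The part of these other cell types in the differences below was not tested. In bulk libraries, fewer cells of a type and less RNA per cell cannot be told apart.

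Differences were tested in edgeR's quasi-likelihood test across all genes with Benjamini-Hochberg adjustment, at an adjusted p of 0.05. The kinds lay far apart, so a call alone says little about any gene. In CDC-EpiC vs CDC, 68.8% of 12976 genes passed, 34.2% higher and 34.6% lower in CDC-EpiC. In pEpiC vs CDC, 78.3% of 13526 genes passed, 39.8% higher and 38.5% lower in pEpiC, and in CDC-EpiC vs pEpiC 81.9% of 13547 passed, 40.3% higher and 41.5% lower in the clone. The comparisons share libraries and are not independent of each other.

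Against that background, all 10 members passed in CDC-EpiC vs CDC, 8 higher and 2 lower in the clone. The 8 were the 3 ligands, Bmpr1a, Smad6 and the 3 Id genes, and the 2 were Bmpr2 and Grem1. The median log2 change of the members was 0.95, and that of all genes tested was 0.00. For pEpiC vs CDC 9 of 10 passed, with Bmp6, Bmpr1a and Bmpr2 higher and Bmp2, Bmp4, Grem1, Smad6, Id1 and Id3 lower in pEpiC. Their median was −0.62, against 0.02 over all genes. All 10 passed in CDC-EpiC vs pEpiC, 6 higher in the clone (Bmp2, Bmp4, Smad6 and the 3 Id genes) and 4 lower, with a median of 1.36 against −0.02 over all genes. The libraries of the kinds did not overlap for 10, 9 and 10 members in these comparisons, where 72.1%, 81.4% and 83.8% of all genes did not overlap.

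**Figure D1:**
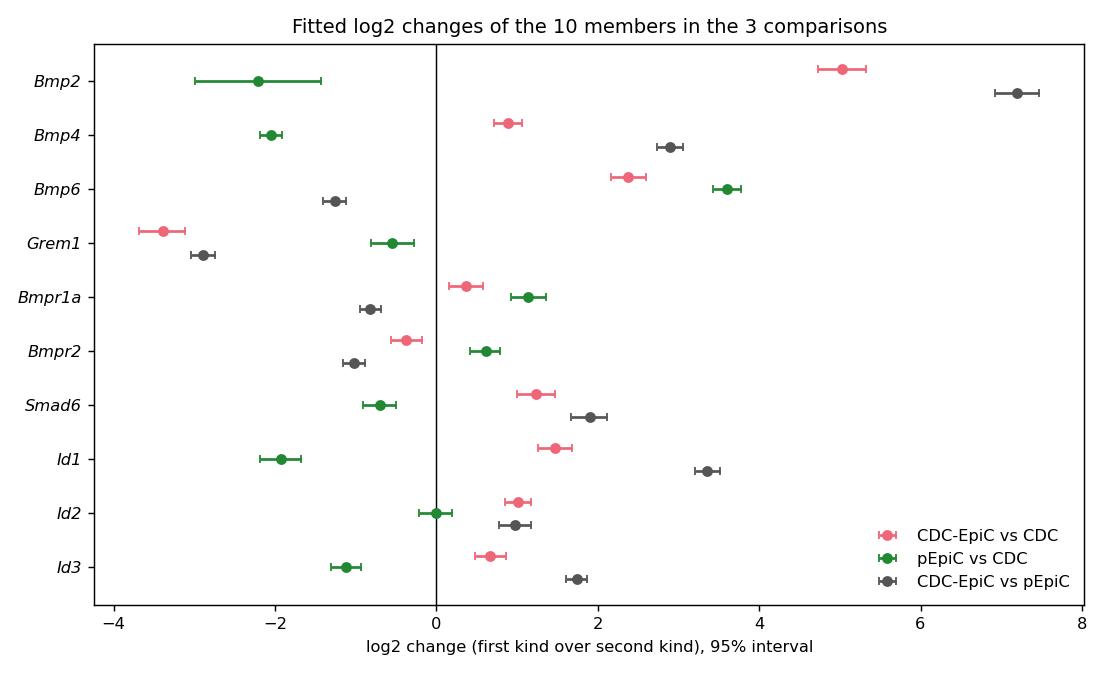
Fitted log2 changes of the 10 genes (x axis, first kind over second kind) with their 95% intervals in CDC-EpiC vs CDC, pEpiC vs CDC and CDC-EpiC vs pEpiC. The interval of Bmp2 in CDC-EpiC vs pEpiC is too narrow for its 10, 7 and 6 counts in the pEpiC libraries. That in CDC-EpiC vs CDC may be too narrow for its 22, 37 and 41 counts in the CDC libraries. Bmp4, Id1, Id3 and Smad6 lie to the right of 0 in the clone and to the left in pEpiC, both against CDC, and Grem1 lies furthest to the left in the clone (−3.39).

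Upstream sequence is shown for Smad6, Bmp4 and Grem1, since the first pair rose and Grem1 fell in CDC-EpiC vs CDC. Of the 10 members, 8 had an entry in the RefSeq promoter table (GRCm38.p6), and Bmp2 and Id1 had none. The strand of each is that of its gene, the minus strand for all 3. The stretches are the 250 bases before the RefSeq start and hold no annotated exon base of the gene, for Smad6 (chr9:64022060-64022309), Bmp4 (chr14:46390670-46390919) and Grem1 (chr2:113758649-113758898). Capitals mark GGCGCC and CAGAC, motifs known from SMAD-bound elements, searched on both strands. These 3 genes were chosen after their values were seen. For the other 5 members with an entry, among them Id2 and Id3, the 250 bases lie within the GENCODE M21 gene, and none are printed.
Smad6: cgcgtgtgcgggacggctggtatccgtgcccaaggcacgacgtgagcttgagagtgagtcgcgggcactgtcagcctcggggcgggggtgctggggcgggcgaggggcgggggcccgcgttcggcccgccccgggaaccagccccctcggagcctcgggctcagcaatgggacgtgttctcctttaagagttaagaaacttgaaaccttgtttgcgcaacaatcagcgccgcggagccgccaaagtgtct
Bmp4: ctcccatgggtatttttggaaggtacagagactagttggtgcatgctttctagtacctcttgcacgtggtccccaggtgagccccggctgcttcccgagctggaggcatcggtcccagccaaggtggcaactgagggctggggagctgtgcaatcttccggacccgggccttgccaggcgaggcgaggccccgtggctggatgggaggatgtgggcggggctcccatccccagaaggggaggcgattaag
Grem1: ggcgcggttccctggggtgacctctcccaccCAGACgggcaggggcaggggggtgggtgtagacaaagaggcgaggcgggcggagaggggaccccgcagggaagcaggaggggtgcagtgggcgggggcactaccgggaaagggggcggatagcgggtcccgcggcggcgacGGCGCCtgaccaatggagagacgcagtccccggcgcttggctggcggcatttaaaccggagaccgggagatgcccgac
GGCGCC and CAGAC each occurred 1 time in the Grem1 stretch, and the marked motifs did not overlap. Neither string was in the Bmp4 or Smad6 stretch. In the windows that are not printed, GGCGCC occurred 1 time each for Id2, Bmpr1a and Bmpr2. CAGAC occurred 1 time for Bmp6 and 2 times for Id3. All of these but Bmpr2 were higher in the clone than in CDC, so the motifs were not confined to a gene that fell. Among the 250-base windows of 27025 RefSeq promoters, 9.54% held GGCGCC and 42.1% held CAGAC. A match is a description of the letters and not of a bound site.

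**Figure D2:**
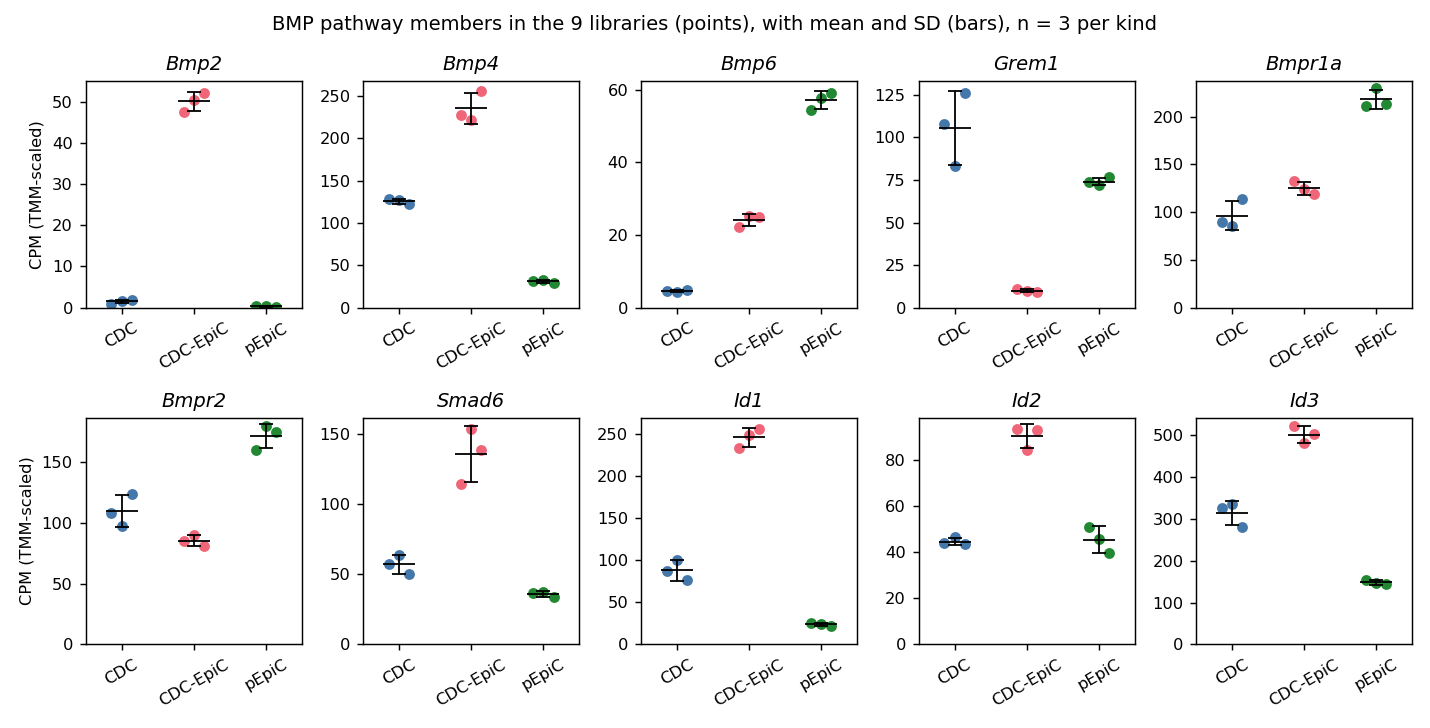
CPM (y axis, TMM-scaled, from 0) of each of the 10 genes in the 9 libraries, with the mean and SD of each kind (n = 3). The CDC-EpiC points lie above the points of both other kinds for Bmp2, Bmp4, Smad6, Id1, Id2 and Id3 and below them for Grem1 and Bmpr2.

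Bmp4 (NCBI Gene 12159, chromosome 14 from 46383520 to 46390669 in GENCODE M21 on GRCm38) encodes a ligand that acts in heart and mesoderm development. It stood at 128, 127 and 122 CPM in the CDC libraries, 228, 221 and 256 in CDC-EpiC and 31.7, 32.5 and 29.3 in pEpiC. The clone was highest and pEpiC lowest, with no overlap between kinds. The log2 change was 0.89 in CDC-EpiC vs CDC (SE 0.08, edgeR adjusted p 9.2e-08), −2.05 in pEpiC vs CDC (SE 0.06, edgeR adjusted p 2.4e-09) and 2.90 in CDC-EpiC vs pEpiC (SE 0.07, edgeR adjusted p 3.4e-10).

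Bmp2 (12156, chromosome 2 from 133552159 to 133562885), the closest relative of Bmp4 among the ligands, was rare outside the clone. Its libraries held 22, 37 and 41 counts (CDC) and 10, 7 and 6 counts (pEpiC), but 1072, 1105 and 1174 in CDC-EpiC, or 47.5, 50.3 and 52.2 CPM. Bmp2 thus had the largest change of the 10 genes, 32.6-fold higher in the clone than in CDC (log2 5.03, SE 0.14, edgeR adjusted p 1.5e-13) and 147-fold higher than in pEpiC (log2 7.20, edgeR adjusted p 4.6e-11). It was lower in pEpiC than in CDC by a log2 change of −2.21 (SE 0.35, edgeR adjusted p 0.00019). Both changes that involve pEpiC rest on its 10, 7 and 6 counts, so their sizes are imprecise. The SE of 0.14 in CDC-EpiC vs CDC may also be too small, given the 22, 37 and 41 counts in CDC.

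Bmp6 (12161, chromosome 13 from 38345107 to 38500302), a ligand of another branch of the family, had a different order. It was lowest in CDC at 4.52, 4.40 and 4.87 CPM, intermediate in CDC-EpiC at 22.3, 25.3 and 24.9, and highest in pEpiC at 54.3, 57.8 and 59.2. Of the 3 ligands, Bmp6 alone was higher than CDC in both other kinds, with log2 changes of 2.38 in the clone (SE 0.10, edgeR adjusted p 2.2e-11) and 3.60 in pEpiC (SE 0.08, edgeR adjusted p 2.5e-10). The clone stayed below pEpiC by a log2 change of −1.26 (SE 0.06, edgeR adjusted p 3.5e-08).

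The make-up of the 3 ligands was compared per length, in TPM, which divides by transcript length and has the same sum in every library. These shares and ratios were chosen after the values were seen. Bmp4 gave 97.0% to 97.6% of the ligand TPM in CDC, 84.5% to 86.2% in CDC-EpiC and 46.3% to 50.3% in pEpiC. The remainder was mainly Bmp2 in the clone (8.97% to 9.94%) and almost wholly Bmp6 in pEpiC (49.3% to 53.5%). Summed ligand TPM was 133 ± 2.32 in CDC, 294 ± 28.1 in CDC-EpiC and 90.5 ± 3.53 in pEpiC (SD, n = 3). None of these values overlapped between kinds, and each pair gave p = 0.1 in a two-sided exact permutation test, the smallest that 3 against 3 libraries allow.

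**Figure D3:**
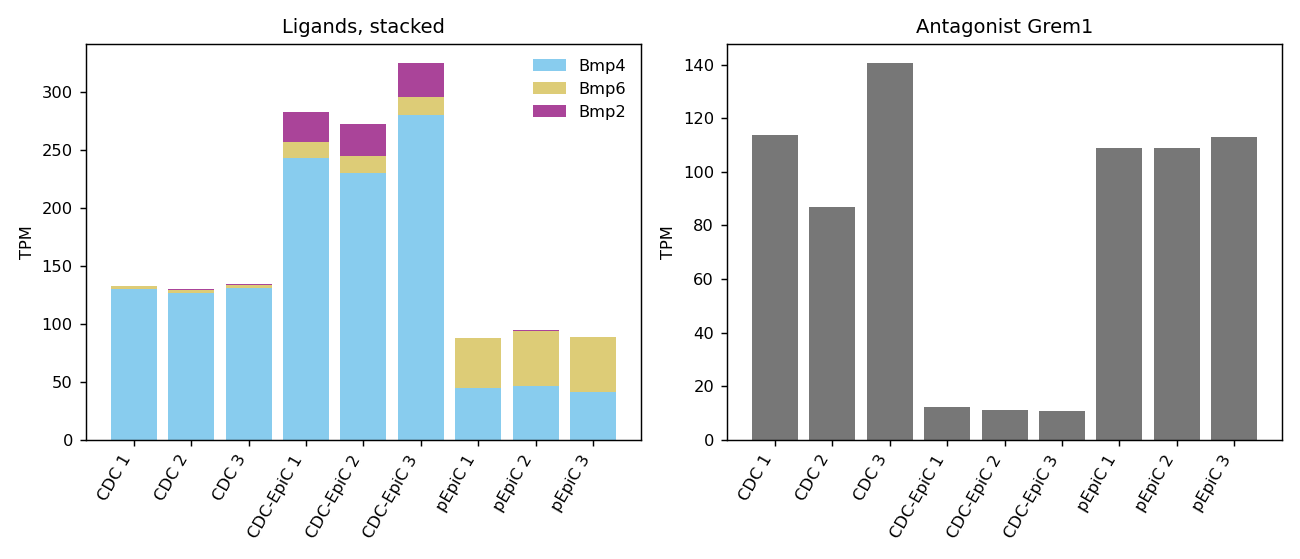
TPM (y axes, from 0) of Bmp4, Bmp6 and Bmp2 stacked (left) and of Grem1 (right) in each of the 9 libraries (bars). Bmp4 makes up most of the bar in CDC and CDC-EpiC and about as much as Bmp6 in pEpiC, and the Grem1 bars are lowest in the 3 CDC-EpiC libraries (mean 11.4 TPM).

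Of 10 other ligands on a list of 48 further pathway genes, Bmp3 and Gdf6 passed the filter on low counts. Gdf6, a growth and differentiation factor of the BMP family, was at 80.3, 69.2 and 76.1 CPM in CDC, 12.9, 15.5 and 17.7 in CDC-EpiC and 152, 159 and 145 in pEpiC. It was thus lowest where Bmp2 and Bmp4 were highest, with log2 changes of −2.30 in the clone (edgeR adjusted p 3.9e-11) and 0.98 in pEpiC (edgeR adjusted p 5.3e-07) against CDC. Bmp3, which is known to oppose other BMP ligands, was counted 49, 53 and 83 times in the CDC libraries, 249, 309 and 217 times in those of pEpiC and 0, 0 and 1 times in those of the clone. Set against a floor of 3 counts per library, Bmp3 was at least 20.9-fold lower in the clone than in CDC and at least 83.3-fold lower than in pEpiC.

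Grem1 (23892, chromosome 2 from 113746164 to 113758646) encodes gremlin 1, a secreted antagonist that binds BMP2 and BMP4. It stood at 108, 83.1 and 126 CPM in CDC, 10.9, 9.93 and 9.47 in CDC-EpiC and 74.0, 71.8 and 76.4 in pEpiC. The clone libraries lay far below both other kinds. Grem1 was 10.5-fold lower in CDC-EpiC than in CDC (log2 −3.39, SE 0.13, edgeR adjusted p 8.0e-12) and 7.41-fold lower than in pEpiC (log2 −2.89, SE 0.07, edgeR adjusted p 2.1e-10). Between pEpiC and CDC the log2 change was −0.55 (SE 0.12, edgeR adjusted p 0.0018), but with TPM it was −0.02 (limma adjusted p 0.901), so this difference depends on the scaling.

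Set per length against its ligands, Grem1 TPM divided by the sum of Bmp2 and Bmp4 TPM was 0.872, 0.682 and 1.07 in CDC. In CDC-EpiC it was 0.0455, 0.0427 and 0.0351, and in pEpiC 2.44, 2.32 and 2.73. Transcripts of Grem1 and of Bmp2 and Bmp4 together were thus of similar level in CDC. Bmp2 and Bmp4 were the higher in the clone, and Grem1 was the higher in pEpiC. Bmp6, which gave 49.3% to 53.5% of the ligand TPM in pEpiC, is not in this ratio. Each pair of kinds gave p = 0.1 in the two-sided exact permutation test, the smallest possible.

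The other secreted antagonists and modulators of the list moved mainly down in the clone. Of 13, 8 could be tested in the clone against CDC, where 7 passed, 6 of them lower, with a median log2 change of −1.65. Of all genes, 68.8% passed in that comparison and 34.6% were lower. By the rule for named genes the 6 lower antagonists include Fstl1 (log2 −3.83, edgeR adjusted p 6.0e-14), Fstl3 (−3.74, edgeR adjusted p 2.8e-13) and Bmper (−2.85, edgeR adjusted p 4.5e-13). Fstl1 and Fstl3 are relatives of follistatin, and Bmper binds BMP ligands outside the cell. Fstl1 went from 525, 507 and 594 CPM in CDC to 36.3, 39.2 and 40.0 in CDC-EpiC. Further names, chosen after their values were seen, are follistatin itself (Fst, log2 −2.07, edgeR adjusted p 1.5e-11) and chordin (Chrd, −1.23, edgeR adjusted p 5.4e-07). The 1 that rose was Nbl1, an antagonist of the DAN family, to which gremlin 1 also belongs, with a log2 change of 0.88 (edgeR adjusted p 6.6e-08).

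Between pEpiC and CDC the antagonists went both ways, 4 higher and 4 lower of 9 tested, with a median log2 change of −0.14. Bmper was lower at 44.4, 44.6 and 50.5 CPM against 115, 106 and 123 in CDC (log2 −1.34, edgeR adjusted p 9.0e-08), while Fstl1 was higher (1.06, edgeR adjusted p 4.2e-07). In CDC-EpiC vs pEpiC all 9 antagonists tested were lower in the clone, against 41.5% of all genes. Fstl1 was lower by a log2 change of −4.93 (edgeR adjusted p 1.7e-11).

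Bmpr1a (12166, chromosome 14 from 34410734 to 34503341) encodes a type I receptor for BMP2 and BMP4. It stood at 89.5, 85.5 and 114 CPM in CDC, 132, 124 and 119 in CDC-EpiC and 211, 229.7 and 213 in pEpiC. The kinds did not overlap, although CDC library 3 came near the clone. The log2 change was 0.37 in CDC-EpiC vs CDC (SE 0.10, edgeR adjusted p 0.0040), 1.14 in pEpiC vs CDC (SE 0.10, edgeR adjusted p 2.2e-06) and −0.82 in CDC-EpiC vs pEpiC (SE 0.06, edgeR adjusted p 5.7e-07). The size of the changes that involve pEpiC depends on the scaling. Over all settings the Bmpr1a change was 0.65 to 1.63 in pEpiC vs CDC and −1.18 to −0.15 in CDC-EpiC vs pEpiC.

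Bmpr2 (12168, chromosome 1 from 59763400 to 59879014) encodes the type II receptor that pairs with it. Its levels were 108, 97.7 and 124 CPM in CDC, 85.1, 90.3 and 80.9 in CDC-EpiC and 160.5, 179.8 and 175 in pEpiC. It was lowest in the clone and highest in pEpiC, with log2 changes against CDC of −0.37 (SE 0.09, edgeR adjusted p 0.0016) and 0.61 (SE 0.08, edgeR adjusted p 7.0e-05). The clone lay below pEpiC by a log2 change of −1.02 (SE 0.06, edgeR adjusted p 1.3e-07). No direction of Bmpr2 that involves pEpiC is firm, since an offset for transcript length and GC content turned pEpiC vs CDC to −0.13 (edgeR adjusted p 0.0304) and left −0.05 in CDC-EpiC vs pEpiC (edgeR adjusted p 0.376). In CDC-EpiC vs CDC the same offset gave −0.15 (edgeR adjusted p 0.0519). Per length, Bmpr1a exceeded Bmpr2 in every library, with a TPM ratio of 1.61 to 1.81 in CDC, 2.68 to 3.04 in CDC-EpiC and 2.38 to 2.58 in pEpiC.

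Of 9 other receptors and co-receptors, 8 were higher and 1 (endoglin, Eng) lower in pEpiC than in CDC, where 39.8% of all genes were higher. Not all of the 8 were firm. Bmpr1b overlapped between the kinds (log2 0.70, edgeR adjusted p 0.047). Acvr2b had a log2 change of 0.54, did not pass with FPKM (limma adjusted p 0.141 and 0.174) and was −0.06 with centred TPM. Acvrl1, the type I receptor known from vessel lining cells, stood at 154, 156 and 160 CPM in pEpiC, 16.9, 13.1 and 14.1 in CDC and 7.54, 8.06 and 7.60 in CDC-EpiC. Its log2 change was 3.38 in pEpiC vs CDC (edgeR adjusted p 6.9e-10) and −4.35 in CDC-EpiC vs pEpiC (edgeR adjusted p 1.3e-11). Of the 10 endothelial markers, 5 could be tested in pEpiC vs CDC and all 5 were higher in pEpiC. Tek averaged 17.5 CPM there against 0.122 in CDC (log2 7.07, edgeR adjusted p 8.6e-10) and Flt1 73.1 against 47.8 (log2 0.58, edgeR adjusted p 0.0015), and the others were Kdr, Vwf and Esam. Pecam1, Cdh5, Tie1, Emcn and Cldn5 had too few counts to be tested and averaged 0.0726 to 0.435 CPM in pEpiC. The part of endothelial cells in the Acvrl1 difference was not tested. Acvr2a, a type II receptor shared with activins, rose from 8.48, 9.93 and 8.56 CPM in CDC to 51.0, 53.4 and 48.8 in pEpiC (log2 2.47, edgeR adjusted p 4.1e-09).

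In the clone, 5 of the 9 other receptors passed against CDC, 2 higher and 3 lower, where 68.8% of all genes passed. Acvr2b, the second activin type II receptor, was higher at 12.1, 10.7 and 9.74 CPM against 4.52, 4.49 and 4.32 (log2 1.28, edgeR adjusted p 3.7e-07). Rgma, a BMP co-receptor named after its values were seen, was lower (log2 −1.74, edgeR adjusted p 1.7e-09). Acvr1, of the same list, averaged 37.1 CPM in the clone and 38.4 in CDC (log2 −0.06, edgeR adjusted p 0.62). Bmpr1b, another type I receptor for BMP ligands, was counted 32, 26 and 39 times in the CDC libraries, 35, 62 and 73 times in those of pEpiC and 0 times in each clone library, which allows up to 3. It was at least 11-fold lower in the clone than in CDC and at least 18.3-fold lower than in pEpiC.

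Smad6 (17130, chromosome 9 from 63953076 to 64022059) is both a target and an inhibitor of the BMP branch. It stood at 57.6, 63.8 and 50.2 CPM in CDC, 114, 154 and 139 in CDC-EpiC and 36.8, 37.5 and 33.9 in pEpiC. The clone was highest and the kinds did not overlap. Smad6 rose by a log2 change of 1.24 in CDC-EpiC vs CDC (SE 0.11, edgeR adjusted p 1.0e-07) and was 1.90 above pEpiC (SE 0.10, edgeR adjusted p 5.3e-08). Its log2 change in pEpiC vs CDC was −0.70 (SE 0.09, edgeR adjusted p 5.4e-05), which did not pass a test against a 1.5-fold change (edgeR adjusted p 0.0876).

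Among the other intracellular inhibitors, Bambi, a decoy receptor for both TGF-beta and BMP, stood at 3.55, 5.03 and 4.69 CPM in CDC, 21.8, 17.5 and 18.7 in CDC-EpiC and 7.71, 7.54 and 7.20 in pEpiC. It rose in the clone by a log2 change of 2.12 (edgeR adjusted p 2.0e-09). Of the 6 inhibitors listed, 2 were higher and 3 lower in the clone than in CDC. Among the 4 signal transducers, Smad9 was higher in the clone at 41.0, 40.1 and 45.3 CPM than in CDC at 18.1, 18 and 18.9 (log2 1.19, edgeR adjusted p 4.0e-09) and lower in pEpiC at 9.91, 10.7 and 10.9 (log2 −0.84, edgeR adjusted p 4.2e-06). It was 1.99 above pEpiC in the clone on the log2 scale (edgeR adjusted p 4.6e-09). Smad9 encodes a SMAD that BMP receptors phosphorylate, and its order across kinds was that of Bmp4, Id1, Id3 and Smad6.

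**Figure D4:**
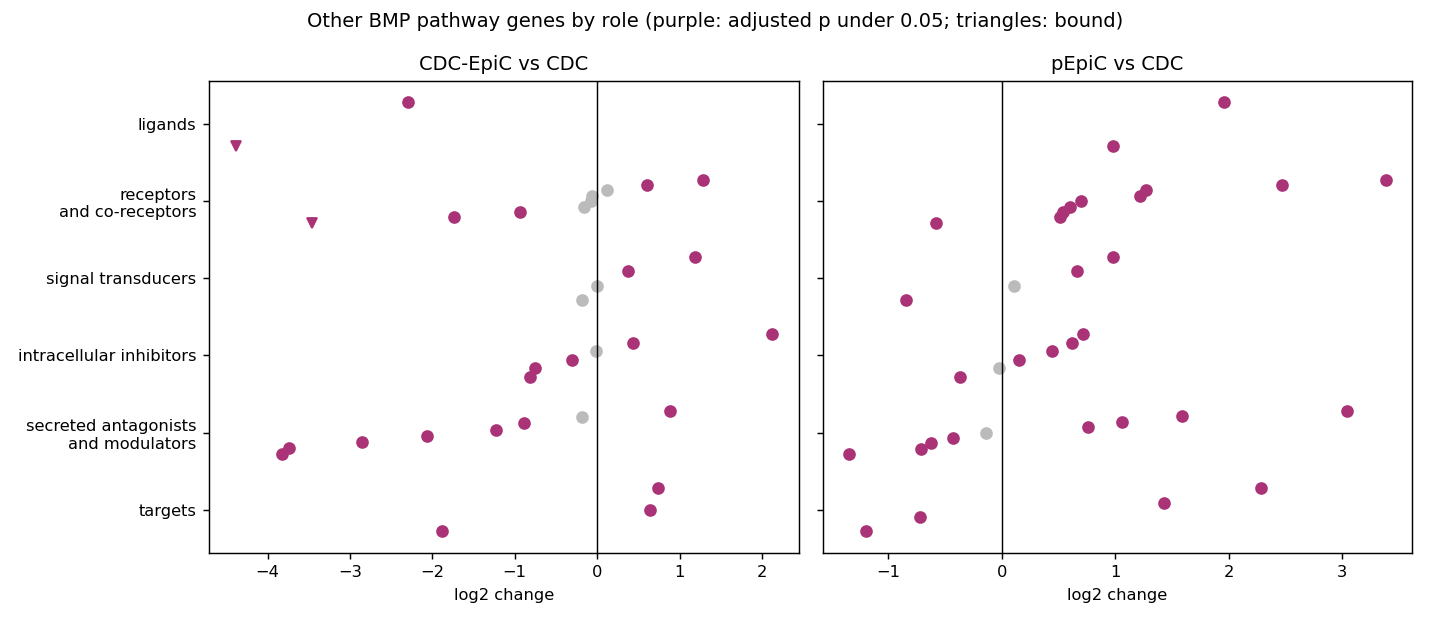
Log2 changes (x axes) of the other BMP pathway genes that were tested, by role (y axis), in CDC-EpiC vs CDC (left) and pEpiC vs CDC (right). Purple points passed an adjusted p of 0.05, grey points did not, and triangles are bounds against 3 counts per library. Of the secreted antagonists, 6 are lower and 1 is higher in the clone, and 8 of 9 receptors are higher in pEpiC. Among the 8, Acvr2b depends on the scaling and the libraries of Bmpr1b overlap.

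Over the whole list of 48 further pathway genes, 24 of 32 tested passed in CDC-EpiC vs CDC, against 68.8% of all genes. Of the 24, 9 were higher and 15 lower, and the median of the 32 was −0.18 on the log2 scale. Of 34 tested in pEpiC vs CDC, 31 passed, against 78.3% of all genes, 22 higher and 9 lower, with a median of 0.61. With the length and GC offset, 19 were higher and 11 lower in pEpiC. In CDC-EpiC vs pEpiC 33 of 34 passed, against 81.9% of all genes, 7 higher and 26 lower in the clone, with a median of −0.82. These medians have the opposite sign to those of the 10 members (0.95, −0.62 and 1.36), and they were the same when genes at the floor were set to their bound.

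Id1 (15901, chromosome 2 from 152736251 to 152737410) encodes a helix-loop-helix protein without a DNA-binding region and is the best known direct target of BMP signalling. It stood at 87.5, 101 and 76.4 CPM in CDC, 233, 249.6 and 256 in CDC-EpiC and 25.8, 23.9 and 21.7 in pEpiC. The kinds were far apart, the clone highest. Id1 was 2.77-fold higher in CDC-EpiC than in CDC (log2 1.47, SE 0.10, edgeR adjusted p 2.9e-09), 3.81-fold lower in pEpiC than in CDC (log2 −1.93, SE 0.11, edgeR adjusted p 1.4e-07) and 10.3-fold higher in CDC-EpiC than in pEpiC (log2 3.36, SE 0.07, edgeR adjusted p 1.4e-10).

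Id3 (15903, chromosome 4 from 136143497 to 136145755), a relative of Id1 with the same mode of action, followed the same order at a higher level. Its CPM was 325, 335 and 281 in CDC, 523, 481 and 503 in CDC-EpiC and 155, 147 and 144 in pEpiC. The log2 change was 0.67 in the clone (SE 0.09, edgeR adjusted p 6.4e-06) and −1.12 in pEpiC (SE 0.08, edgeR adjusted p 7.3e-07), both against CDC, and 1.74 in CDC-EpiC vs pEpiC (SE 0.06, edgeR adjusted p 2.4e-09).

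Id2 (15902, chromosome 12 from 25093799 to 25097140) is the third of the family measured here. It stood at 43.9, 46.5 and 43.4 CPM in CDC, 93.5, 84.5 and 93.1 in CDC-EpiC and 51.0, 45.8 and 39.7 in pEpiC. The clone lay above both other kinds, and pEpiC and CDC overlapped. Id2 rose in CDC-EpiC vs CDC by a log2 change of 1.01 (SE 0.08, edgeR adjusted p 1.4e-08) and was 0.98 above pEpiC (SE 0.09, edgeR adjusted p 2.8e-06). The log2 change in pEpiC vs CDC was −0.01 with a 95% interval of −0.21 to 0.19 (edgeR adjusted p 0.94), and with TPM it was 0.48 (limma adjusted p 0.000623). Within pEpiC, library 1 was highest for Id2 and also held the most macrophage marker counts, and the part of these in the Id2 level was not tested.

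Per length, the 3 Id genes summed to 768 to 870 TPM in CDC, 1544 to 1695 in CDC-EpiC and 507 to 565 in pEpiC. Id3 gave the largest share in every library. Id1 made up 19.9% to 21.8% of the sum in CDC, 28.6% to 31.9% in CDC-EpiC and 11.3% to 12.0% in pEpiC. None of the 3 kinds overlapped in the summed level or in the Id1 share, with p = 0.1 in each two-sided exact permutation test, the smallest possible.

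Other target genes did not all follow Id1. Atoh8 and Msx1 had its order, highest in the clone and lowest in pEpiC, while Id4 and Hey1 were highest in pEpiC. Msx2 and Dlx5, the others listed, had too few counts to be tested and were also highest in pEpiC. They had 14, 9 and 13 counts (Msx2) and 9, 6 and 9 counts (Dlx5) there. Each CDC and CDC-EpiC library held at most 1 count of either. Atoh8, a transcription factor known to respond to BMP, was lower in pEpiC at 86.0, 80.4 and 82.9 CPM than in CDC at 141, 141 and 117 (log2 −0.72, edgeR adjusted p 2.2e-05). In the clone Atoh8 was higher than in CDC (log2 0.64, edgeR adjusted p 8.2e-06). Msx1, a homeobox gene, was higher in the clone at 11.4, 12.4 and 12.6 CPM than in pEpiC at 2.97, 3.94 and 2.84 (log2 1.89, edgeR adjusted p 6.2e-07). Against CDC, Msx1 changed by 0.74 in the clone (edgeR adjusted p 2.0e-05) and −1.19 in pEpiC (edgeR adjusted p 3.9e-05) on the log2 scale. Id4, the fourth Id gene, went the other way from Id1 to Id3 and was named after its values were seen. It stood at 5.12, 5.80 and 5.46 CPM in CDC, 1.86, 1.18 and 1.42 in CDC-EpiC and 15.6, 15.9 and 14 in pEpiC, a log2 change of −1.88 in the clone (edgeR adjusted p 3.6e-07) and 1.43 in pEpiC (edgeR adjusted p 6.2e-07).

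The E proteins that Id proteins bind also differed. Tcf3 was higher in the clone at 133, 137 and 145 CPM than in CDC at 81.7, 90.3 and 77.4 (log2 0.73, edgeR adjusted p 1.0e-06), as was Tcf12 by a smaller log2 change of 0.24 (edgeR adjusted p 0.012). Tcf4 was lower in the clone at 16.8, 18.5 and 17.8 CPM than in CDC at 34.3, 36.4 and 48.8 (log2 −1.18, edgeR adjusted p 3.0e-07). In pEpiC, Tcf4 and Tcf12 were higher than in CDC, with log2 changes of 1.80 (edgeR adjusted p 2.2e-07) and 1.27 (edgeR adjusted p 9.1e-08). Without CDC library 2 the Tcf12 change in the clone did not pass (log2 0.19, edgeR adjusted p 0.0689). Tcf3 in pEpiC vs CDC had a log2 change of −0.21 (edgeR adjusted p 0.022), which was 0.29 with TPM (limma adjusted p 0.00252) and did not pass without CDC library 2 or without pEpiC library 2 or 3 (edgeR adjusted p 0.0628 to 0.0773).

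Response genes of the TGF-beta branch, which SB-431542 blocks, went both ways in the clone. Of 5 TGF-beta response genes, 3 were lower and 2 higher in the clone, and their median log2 change against CDC was −1.27, while Id1, Id2, Id3 and Smad6 were all higher with a median of 1.12. Of the other BMP targets tested in this comparison, Atoh8 and Msx1 were higher and Id4 was lower, with a median of 0.64. Pmepa1, a feedback inhibitor of TGF-beta signalling, had a log2 change of −3.95 (edgeR adjusted p 2.8e-13), Ctgf one of −3.74 (edgeR adjusted p 1.0e-10) and Skil one of −1.27 (edgeR adjusted p 5.9e-07). The 2 that rose, Ltbp2 (log2 1.22, edgeR adjusted p 5.8e-05) and Tgfbi (log2 0.63, edgeR adjusted p 0.012), were low in both kinds, at 3.55 and 2.08 CPM in CDC. The Tgfbi call was lost without CDC library 2 (log2 0.49, edgeR adjusted p 0.057) and without CDC-EpiC library 2 (log2 0.53, edgeR adjusted p 0.0568). The response genes in pEpiC vs CDC went 4 higher and 1 lower, with a median of 0.92, and the median of Id1, Id2, Id3 and Smad6 was −0.91. Tgfbi, among the 4, stood at 56.2, 28.2 and 26.5 CPM in pEpiC libraries 1, 2 and 3. Library 1 also held the most macrophage marker counts, and their part in the Tgfbi level was not tested. The other BMP targets tested in pEpiC vs CDC (Id4, Atoh8, Hey1 and Msx1) were 2 higher and 2 lower, with a median of 0.36.

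**Figure D5:**
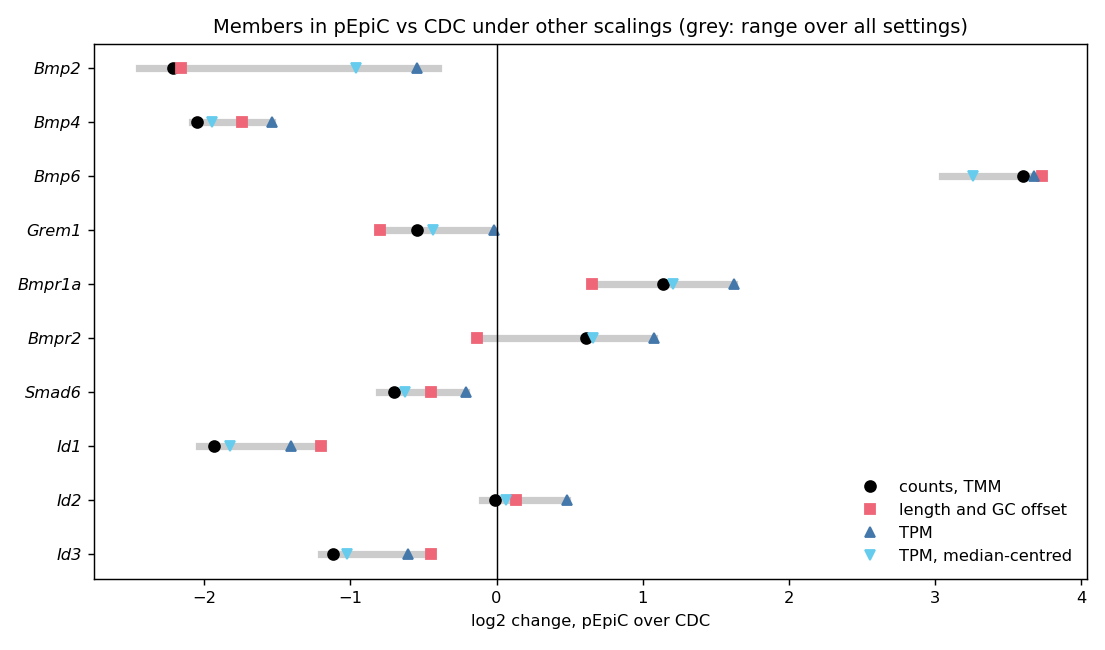
Log2 change in pEpiC vs CDC (x axis) of each of the 10 genes in the count fit, with a length and GC offset, with TPM and with TPM centred on the median gene (points), and the range over all settings (grey bars). The bars of Bmpr2 (−0.13 to 1.07) and Id2 (−0.10 to 0.48) cross 0, and the Grem1 bar ends at −0.02.

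The scaling bears on every small difference that involves pEpiC. In pEpiC vs CDC, log2 changes rose by 0.419 for each doubling of transcript length across 10641 genes, and by 0.00372 in CDC-EpiC vs CDC. With TPM the median of all genes shifted to 0.41 in pEpiC vs CDC, and the share of calls that favoured pEpiC was 74.5%, against 50.8% for counts. For CDC-EpiC vs pEpiC the median with TPM was −0.33, and 32.9% of calls were higher in the clone against 49.3%. Relative to that shift, with each library centred on the median gene, Bmp4 in pEpiC vs CDC changed by −1.95, Id1 by −1.82 and Grem1 by −0.44 on the log2(TPM + 1) scale. Bmp2, Bmp4, Id1, Id3 and Smad6 were lower and Bmp6 and Bmpr1a higher in pEpiC than in CDC under each scaling tried. The direction held, but several sizes did not. With the length and GC offset the log2 change in pEpiC vs CDC was −1.20 for Id1, −0.45 for Id3 and 0.65 for Bmpr1a. The count fit without it gave −1.93, −1.12 and 1.14.

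Per length, Id3 was the highest of the 10 genes in every kind, at 591 ± 35.0 TPM in CDC, 997 ± 57.8 in CDC-EpiC and 388 ± 13.4 in pEpiC (SD, n = 3). In CDC it was followed by Id1 (169.6 TPM), Bmp4 (129), Grem1 (114), Id2 (62.5), Smad6 (34.7), Bmpr1a (30.8), Bmpr2 (17.9), Bmp6 (2.69) and Bmp2 (0.843), and the libraries of Bmp4 and Grem1 and of Smad6 and Bmpr1a overlapped. In the clone the order was Id1 (498), Bmp4 (251), Id2 (133), Smad6 (86.5), Bmpr1a (41.8), Bmp2 (27.4), Bmp6 (14.8), Bmpr2 (14.6) and Grem1 (11.4), where Bmp6 and Bmpr2 overlapped. Grem1 thus went from the fourth place in CDC to the last. In pEpiC the order after Id3 was Grem1 (110.2), Bmpr1a (96.0), Id2 (88), Id1 (63.3), Bmp6 (46.2), Bmp4 (44.1), Bmpr2 (38.6), Smad6 (29.9) and Bmp2 (0.257), where Bmpr1a overlapped Id2 and Bmp6 overlapped Bmp4.

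For 3 of the members, the most similar genes were sought by the distance over the log2 changes in pEpiC vs CDC and CDC-EpiC vs CDC, among 10118 genes tested in both. Nearest to Bmp4 (−2.05 and 0.89) were Olfml2b (−2.00 and 0.97, distance 0.093), Hmgb3 (−2.12 and 0.83, distance 0.099) and Slco2a1 (−2.16 and 0.83, distance 0.129). Nearest to Id1 were Myo18a (distance 0.086), Hdhd3 (0.087) and Echdc3 (0.134). Nearest to Grem1 (−0.55 and −3.39) were Syk (−0.40 and −3.39, distance 0.142), Foxs1 (−0.56 and −3.22, distance 0.178) and Lrp8 (−0.69 and −3.22, distance 0.23). Without pEpiC library 1, the one with most macrophage marker counts, the log2 change of Syk in pEpiC vs CDC was −0.81 (edgeR adjusted p 0.000338).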

How the data were processed

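The members, gene lists and tests were chosen with earlier results of these data known. For each of 9 libraries of 3 kinds of cell the authors deposited FPKM, TPM and expected counts, estimates that are not whole for 30.3% of values, plus means that equalled the library means and were not used. The submitters' processing notes name mm10, HISAT2 2.0.4, Bowtie2 2.2.5, RSEM 1.2.12 and DESeq2 1.4.5, without roles. The annotation and use of strand are not given in the sources used here, so genes that overlap others or have near-identical copies are uncertain. The labels give 1 sample per kind, and its 3 columns were taken as replicates since the labels speak of RNA from 3 separate samples, read here as 3 of each kind. The methods give 2 biological replicates per condition for their own test, which does not match 3 columns, so every SE and p-value rests on taking the columns as replicates. No pair of them was alike within read sampling (chi-square over its degrees of freedom, 4.89 to 23.0).

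Expected counts were rounded and fitted for each pair of kinds in edgeR 4.0.16 under R 4.3.3, with glmQLFit and glmQLFTest and TMM scaling. Genes were kept that pass filterByExpr at a count of 10 and a total of 15. The fit was checked on simulated data. There, 9.04% of calls were false in pEpiC vs CDC, 9.31% in CDC-EpiC vs CDC and 6.32% in CDC-EpiC vs pEpiC. Each share was above the one that the adjusted p threshold aims at, so calls close to the threshold are less certain than their adjusted p. Adjusted p-values are Benjamini-Hochberg values over all genes tested. CPM were scaled by TMM over the 9 libraries. A kind with at most 3 counts in every library was treated as at the floor. Floors cover counting error only, while the 95% intervals of log2 changes include the spread between libraries. Each SE is the size of the log2 change divided by the square root of the F statistic, and the intervals rest on it. Such an SE can be too small for a large change from few counts, as for Bmp2 in CDC-EpiC vs pEpiC, and may be so for Bmp2 in CDC-EpiC vs CDC. Alternatives used DESeq2 1.42.0, limma 3.58.1 on log2 values with a pseudocount of 1 or 0.1, other scalings and filters, and left-out libraries. From the pathway list, the 3 largest rises and falls per comparison were named among genes past the threshold, without overlap, whose higher kind reached 10 CPM, and any other listed gene was named after its values were seen. A gene of the pathway list and a TGF-beta response gene are not reported here and were left out of their lists' counts and medians. Python 3.11.15, pandas 2.3.3, SciPy 1.17.1 and matplotlib 3.10.9 made the tables and figures.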

Additional observations from a re-analysis of the deposited data

How the results depend on the processing

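Across the 3 comparisons, 548 of the members' alternative fits kept direction and side of the threshold, 9 lost the call and 11 changed sign, 10 of these for Id2 in pEpiC vs CDC. For the other genes named, 1891 kept both, 33 lost the call, 2 gained it and 10 changed sign. A test against a 1.5-fold change gave 5549 genes in pEpiC vs CDC, 3664 in CDC-EpiC vs CDC and 6578 in CDC-EpiC vs pEpiC, where the main counts were 10593, 8928 and 11091, and 17 genes of the pathway list in pEpiC vs CDC against 31, because it asks for more than a difference from 0. Of the members, 6, 7 and 10 passed it: Bmpr2, Smad6 and Grem1 did not in pEpiC vs CDC, nor did Bmpr1a, Bmpr2 and Id3 in CDC-EpiC vs CDC. The log2 change of Bmpr2 in pEpiC vs CDC was −0.135 with the length and GC offset. That of Id2 in pEpiC vs CDC was 0.106 with library size alone, 0.0243 with at least 10 counts in every library, 0.0323 with all 9 libraries in 1 fit, 0.103 and 0.105 with FPKM (pseudocounts of 1 and 0.1), 0.482 with TPM, 0.132 with the offset, 0.0650 with centred TPM, and −0.100 to 0.0818 leaving out 1 library (above 0 without CDC library 2, 0.0237, and without pEpiC library 3). In pEpiC vs CDC, Acvr2b was −0.0619 with centred TPM, Chrd 0.0886 with TPM, Tcf3 0.292 with TPM and 0.0476 with the offset, and Foxs1 0.110 with the offset. Acvr2a in CDC-EpiC vs CDC was 0.0105 and 0.0159 with FPKM, 0.0269 with TPM, 0.138 with the offset and −0.165 to 0.00885 leaving out 1 library. The cause of these reversals was not tested. TPM centred on the median gene was added after seeing the data.

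Leaving out 1 library at a time gave 10073 to 10838, 8248 to 9046 and 10760 to 11076 genes in pEpiC vs CDC, CDC-EpiC vs CDC and CDC-EpiC vs pEpiC, 29 to 35, 24 to 26 and 34 to 37 of the pathway list, and 9, 10 and 10 members. The library numbers did not pair the samples, since same-numbered libraries had correlations of −0.101 to 0.163 and not every library correlated best with its own number. With the library number as a replicate block, 10604, 8831 and 11096 genes, 30, 24 and 33 of the pathway list and 9, 10 and 10 members passed. Low counts limit Bmp2 in pEpiC (6 to 10 counts per library).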
